A study of Mus musculus with 3 samples.

Results

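*Arg1*-positive macrophages of the vehicle control library were examined in single-cell RNA sequencing of a mouse glioblastoma (GBM) model. They comprised 60 of the 1264 cells kept from that library and of the 4269 cells kept from all 3 libraries. A cell was counted if it held at least 1 unique molecular identifier (UMI, 1 captured RNA molecule) of *Arg1* and at least 1 of *Lyz2*. It also had to hold fewer than 3 of 7 microglia markers (*P2ry12*, *Tmem119*, *Sall1*, *Siglech*, *Gpr34*, *Olfml3* and *P2ry13*) and fewer than 3 of 5 cycling markers (*Mki67*, *Top2a*, *Birc5*, *Pclaf* and *Hist1h1b*). Barcodes with under 200 detected genes or over 20% mitochondrial UMIs were left out, as was any barcode that another library also held, unless its UMIs were at least 5 times those of the copy. The cells were therefore selected on their own counts of these genes, and levels of the selecting genes are given only as a description.

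All libraries came from tumor-bearing female C57BL/6 mice, implanted at 6 to 8 weeks of age in the right striatum with a single brain tumor-initiating cell (BTIC) line, BT0309, derived from *Trp53*+/-/Nf1+/- (NPcis) mice. Vehicle mice received saline, and niacin mice received niacin intraperitoneally at 100 mg/kg every day from day 7. Tissue around the injection site was taken 4 weeks after implantation and pooled, leukocytes were enriched on Percoll, and live cells were sorted by SYTOX Red exclusion for droplet sequencing. The sample labels state 4 pooled tissues per library, whereas the methods state 5 control and 10 niacin mice, and cells could not be assigned to mice in either case. The host immune cells were wild type, and no library of a tumor-free brain was analyzed here. With 1 vehicle control library, labelled replicate 2, no difference below has a replicate check and no p-value is given. All intervals are 95% intervals that cover counting error only.

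Arginase 1, the product of *Arg1*, cleaves arginine to ornithine and urea and thereby competes with inducible nitric oxide synthase, encoded by *Nos2*, for the same substrate. In mice its expression in macrophages is a classical readout of alternative activation by interleukin-4 and interleukin-13, and it also follows from hypoxia, lactate and bacterial products. *Arg1* expression is a common feature of monocyte-derived macrophages in tumors, whereas resting microglia express little of it.

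Total depth ran from 8301228 to 10359526 UMIs per library, and 1264 to 1594 cells per library were kept. Barcodes were widely shared between libraries: 484 of the 2270 barcodes of the vehicle control library also occurred in a niacin library, and 29 of the 60 *Arg1*-positive macrophages had such a copy. Copies of all 29 were found in niacin replicate 1 and of 25 in niacin replicate 2. A cell held a median of 23.5 times (at least 20.3 times) the UMIs of its copy in the former and 24.9 times in the latter. Results that rest on these barcodes are given with and without them below. The 29 cells held more UMIs per cell on average than the other cells of the group. Leaving them out therefore also changes depth, and the 2 cannot be told apart.

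Before the barcode step, 18 barcodes of niacin replicate 1 and 13 of niacin replicate 2 met the other criteria, and 13 and 7 of these, respectively, carried the barcode of an *Arg1*-positive macrophage of the vehicle control library. After the step, the same rule found 0 cells in niacin replicate 1 and 1 cell in niacin replicate 2. The vehicle control share was 4.75% of kept cells (exact binomial interval 3.64% to 6.07%). The count of 0 in niacin replicate 1 allows a share of up to 0.261% (upper end of the same interval), and the share in niacin replicate 2 was 0.0627% (0.00159% to 0.349%). Among *Lyz2*-positive cells outside microglia and cycling cells, the shares were 17.2% (13.4% to 21.6%) of 348 cells in the vehicle control, 0 of 182 in niacin replicate 1, which allows up to 2.01%, and 0.490% (0.0124% to 2.70%) of 204 in niacin replicate 2. Over all kept cells *Arg1* stood at 237 UMIs in 1000000 (CPM) in the vehicle library, and at 0.368 and 1.01 CPM in niacin replicates 1 and 2. Treatment and library cannot be told apart in these values, since the vehicle group is a single library, and they were not tested. The niacin libraries hold too few such cells for their expression to be described.

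The cells were compared with 3 other groups of the same library, which share its droplets and its pool of tissue. The first was 128 *Arg1*-negative monocytes and macrophages, which met the same rule but for *Arg1*, carried at least 2 of 7 myeloid genes (among them *Csf1r*, *Ccr2*, *Adgre1*, *Fcgr1*, *Ms4a7* and *Cd14*) and lacked marker sets of lymphocytes, basophils and neutrophils. The second was 397 microglia with at least 3 of the 7 microglia markers, and 212 T cells served as a measure of free RNA. Depth differed between these groups. The median was 11468.5 UMIs per cell in *Arg1*-positive macrophages (789 to 24900), 4283.5 in *Arg1*-negative cells, 5900 in microglia and 5260 in T cells. The median mitochondrial share was 2.42% in *Arg1*-positive macrophages against 5.41% in *Arg1*-negative cells. Shares of cells with a UMI were therefore read after each cell was thinned to 2000 UMIs, which left out the 8 *Arg1*-positive macrophages, 28 *Arg1*-negative cells, 106 microglia and 58 T cells below that depth.

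*Arg1* itself varied widely among the cells selected on it. The highest cell held 211 UMIs, the median was 5.5 UMIs, and the lowest were 14 cells with a single UMI. A further 12 cells held 2 to 4 UMIs, 18 held 5 to 19 and 16 held 20 or more. The 16 highest cells carried 83.9% and the 5 highest 47.0% of the 1387 *Arg1* UMIs, so the summed level of 2211 CPM (exact Poisson interval 2096 to 2330) describes mainly a minority of the cells. The single-UMI cells had a median of 10734.5 UMIs and 28 *Lyz2* UMIs, against 3592 and 3 in the 288 *Lyz2*-positive cells just outside the threshold with no *Arg1* UMI. Those 288 cells are mixed, since they were not filtered for myeloid genes or for markers of other classes. The 128 *Arg1*-negative monocytes and macrophages are the part of them that passed those filters. In T cells *Arg1* stood at 0.879 CPM, which is 1 UMI in 212 cells.

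Of all 1661 *Arg1* UMIs in kept cells of the library, 83.5% lay in these 60 cells. Outside the rule, 16 cells with *Arg1* had no *Lyz2* UMI, 16 carried at least 3 microglia markers and 1 was cycling, and counts overlap between the first 2 groups. In the microglia, 98 *Arg1* UMIs were spread over 16 cells with a median of 1 UMI and a highest value of 47, and the median depth of these 16 cells was 9248 UMIs, against 5737 in microglia without *Arg1*. The microglia with *Arg1* were thus few and deeper than the rest, and together they gave the microglial level of 39.7 CPM.

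The label of macrophages was checked against marker lists. *Arg1*-positive macrophages expressed the monocyte list at a sum of 10354 CPM, close to the 9329 CPM of *Arg1*-negative cells and above the 2123 CPM of microglia. The mature macrophage list summed to 9356 CPM, against 8374 in *Arg1*-negative cells and 22174 in microglia. The 7 microglia markers summed to 89.3 CPM, below the 106 CPM in T cells, although this list took part in the selection. Of these 60 cells, 57 carried at least 2 of the 7 myeloid genes. The data thus match a monocyte and macrophage identity, and do not separate the 2 stages.

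Markers of other cell types were low but not absent. The T cell list summed to 9.56 CPM with *Cd3g*, *Trac* and *Cd4* at 0, and the choroid plexus list to 31.9 CPM against 49.2 CPM in T cells. The neutrophil list summed to 298 CPM, against 222 in *Arg1*-negative cells and 135 in T cells. Only the *Arg1*-negative cells were selected to hold fewer than 3 neutrophil markers, so their sum is not a like comparison. *S100a8* and *S100a9*, which neutrophils express in quantity, stood at 38.3 and 22.3 CPM in *Arg1*-positive macrophages and at 47.5 and 57.2 CPM in T cells. In all, 18 of the 60 cells carried marker sets of another class, most often of neutrophils (8 cells with at least 3 genes) or B cells (10 cells with at least 2 genes). No doublet caller was run, and leaving these cells out kept 42 cells.

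**Figure D1:**
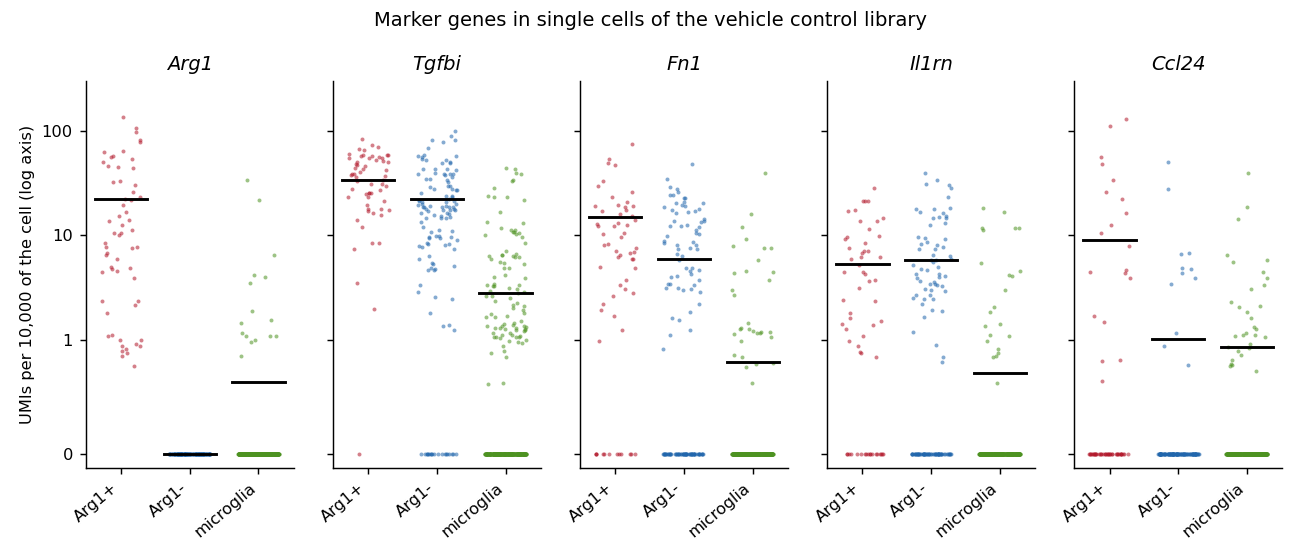
UMIs of *Arg1*, *Tgfbi*, *Fn1*, *Il1rn* and *Ccl24* per 10000 UMIs of a cell (log axis, zeros at the bottom) in the 60 *Arg1*-positive macrophages (*Arg1*+), 128 *Arg1*-negative monocytes and macrophages (*Arg1*-) and 397 microglia. Each point is a cell and each black line the level of the summed cells. *Tgfbi* was found in 59 of the *Arg1*-positive macrophages, whereas *Ccl24* was found in 20 and reached 267 UMIs in a single cell.

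*Arg1* lies on mouse chromosome 10 (24915221 to 24927484, minus strand, GRCm38.p6). The 4 genes named as markers beside it, from earlier results of these data, behaved differently against *Arg1*-negative cells. *Tgfbi*, which encodes a secreted matrix protein induced by TGF-β, was found in 59 of the 60 cells at 3365 CPM (3223 to 3511), and stood at 2205 CPM in *Arg1*-negative cells, a 1.53-fold difference. *Il1rn*, the interleukin-1 receptor antagonist, stood at 537 CPM (481 to 598) in 42 of the cells and at 587 CPM in *Arg1*-negative cells, so the counting intervals overlapped. Neither gene therefore reached the 2-fold difference used here to call a gene.

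*Fn1*, encoding fibronectin, stood at 1484 CPM (1390 to 1582) in 48 cells and at 601 CPM in *Arg1*-negative cells, which is 2.47-fold higher. This difference was not seen without shared barcodes. When every barcode that another library held was left out, 31 *Arg1*-positive macrophages remained and *Fn1* stood at 732 CPM against 744 CPM. These 31 cells were on average shallower than those left out, so barcode and depth cannot be told apart here. *Ccl24* (eotaxin-2, a chemokine for eosinophils and a known product of alternatively activated macrophages) stood at 902 CPM (829 to 980) against 103 CPM in *Arg1*-negative cells, an 8.80-fold difference. It was found in 20 of the 60 cells, and the cell with most of it held 47.2% of its UMIs. Without that cell *Ccl24* stood at 493 CPM, 4.81-fold higher than in *Arg1*-negative cells, and without shared barcodes at 562 CPM, 17-fold higher.

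Against microglia all 4 genes were higher, *Tgfbi* 11.9-fold, *Fn1* 24.4-fold, *Il1rn* 11.2-fold and *Ccl24* 10.5-fold. They were nearly absent from T cells, at 74.8, 32.5, 7.91 and 1.76 CPM. Of the 60 cells, 13 held at least 1 UMI of all 4 genes, 29 of 3 of them, 12 of 2 and 6 of 1, and none lacked all 4. *Tgfbi*, *Fn1* and *Il1rn* thus marked infiltrating myeloid cells against microglia, and among the 4 genes *Ccl24* and *Fn1* alone passed 2-fold against *Arg1*-negative cells of the same library.

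Across all genes with at least 20 CPM in either group, 6370 were compared with *Arg1*-negative cells, leaving out the genes of the rule. Of these, 290 (4.55%) were at least 2-fold higher in *Arg1*-positive macrophages and 336 (5.27%) at least 2-fold lower, with a median log2 ratio of 0.02 over all genes. A 2-fold difference here is a statement of size in 1 library and not of significance. Against microglia 987 of 7288 genes (13.5%) were at least 2-fold higher and 1745 (23.9%) at least 2-fold lower, around a median of -0.20 on the log2 scale. Scaling by TMM factors moved the split against microglia to 1271 higher and 1401 lower.

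Chemokine genes differed from *Arg1*-negative cells in both directions. Of 13 list genes compared, 7 were at least 2-fold higher and 2 lower, with a median log2 ratio of 1.05 against 0.02 over all genes. Without shared barcodes the median was 0.22. The list includes *Ccl24*, which was named as a marker of these cells from earlier results, so its count is not independent of that choice.

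*Ccl7*, a chemokine that recruits monocytes through CCR2, was found in 8 of the 60 cells, all of which also held its neighbor *Ccl2*. It stood at 362 CPM (316 to 412) against 12.4 CPM in *Arg1*-negative cells and 13 CPM in microglia. A single cell, the one with the second most *Arg1*, held 67.8% of its UMIs, and without that cell *Ccl7* stood at 119 CPM. All 8 cells had a barcode shared with a niacin library, and no *Ccl7* UMI was found in the 31 cells without one. The difference was thus seen only among cells with shared barcodes, which were also deeper on average. *Ccl2*, the main ligand of CCR2, stood at 904 CPM (831 to 981) in 26 cells against 195 CPM in *Arg1*-negative cells and 283 CPM in microglia. It followed the same pattern, at 176 CPM against 283 CPM in *Arg1*-negative cells without shared barcodes.

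*Ccl6*, a CC chemokine that mouse myeloid cells express in quantity, was found in more cells than *Ccl7* or *Ccl2*. It was still uneven, with a median of 1 UMI per cell and highest values of 144 and 121 UMIs. *Ccl6* stood at 937 CPM (863 to 1016) in 34 cells against 223 CPM in *Arg1*-negative cells, a 4.20-fold difference that was 7.22-fold without shared barcodes and 3.30-fold without its highest cell. It was at least 2-fold higher in all 18 alternatives that changed the cells, their depth or their weights, which are meant wherever 18 alternatives are named. *Cxcl2*, a ligand of the neutrophil receptor CXCR2, stood at 336 CPM against 162 CPM in *Arg1*-negative cells and 12.2 CPM in microglia. Without its highest cell *Cxcl2* stood at 251 CPM, 1.55-fold higher than in *Arg1*-negative cells and so below 2-fold.

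*Ccl3* and *Ccl12* were 2.32-fold and 2.68-fold higher than in *Arg1*-negative cells but 5.07-fold and 2.50-fold lower than in microglia. Neither was higher than in *Arg1*-negative cells in the 31 cells without shared barcodes, with *Ccl3* at 71.6 against 73.9 CPM and *Ccl12* at 22 against 140 CPM. The chemokines lower than in *Arg1*-negative cells were the interferon-γ-inducible CXCR3 ligands. *Cxcl9* stood at 599 CPM in 18 cells against 1483 CPM, and *Cxcl10* at 360 CPM in 19 cells against 927 CPM. Of the *Cxcl10* UMIs 67.7% came from 1 cell, the same that led in *Ccl7*, and without it *Cxcl10* stood at 119 CPM.

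**Figure D2:**
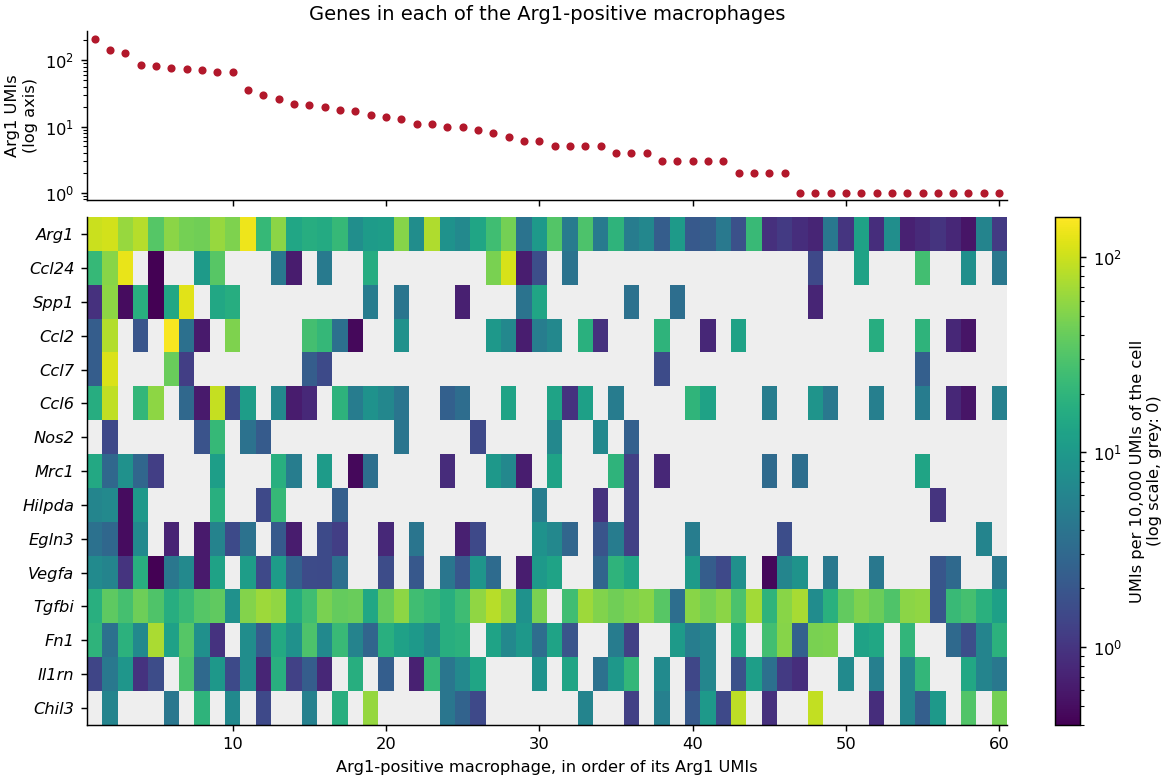
Upper panel, *Arg1* UMIs (log axis) of the 60 *Arg1*-positive macrophages in order of their *Arg1* UMIs, and lower panel, UMIs of 15 genes per 10000 UMIs of the same cells (log color scale, grey where no UMI was found). *Spp1*, *Ccl7* and *Nos2* were found in 17, 8 and 10 cells, whereas *Tgfbi* was found in 59.

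Matrix genes came next. Of 21 compared with *Arg1*-negative cells, 8 were at least 2-fold higher and 0 lower, with a median log2 ratio of 0.54. Against microglia 17 of 21 were higher and 1, *Timp2*, was lower, with a median of 3.44. *Spp1*, encoding the adhesive glycoprotein osteopontin, stood at 615 CPM (555 to 680) in 17 cells, against 33.8 CPM in 7 *Arg1*-negative cells, 19 CPM in microglia and 8.79 CPM in T cells. The highest cell held 52.1% of its UMIs. Without that cell *Spp1* stood at 303 CPM, 8.96-fold higher than in *Arg1*-negative cells, and without shared barcodes at 292 CPM in 7 cells, 10.4-fold higher. *Spp1* was thus higher under each of the 18 alternatives, in a minority of the cells.

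*F13a1*, the A subunit of clotting factor XIII, which crosslinks fibrin, was found in 29 cells at 355 CPM (310 to 405), against 124 CPM in *Arg1*-negative cells and 7.70 CPM in microglia. It stayed at least 2-fold higher than in *Arg1*-negative cells in all 18 alternatives. *F13a1* and *Mrc1* are also on the list of border-associated macrophage genes, of which 3 of 5 compared were higher and 0 lower. That list summed to 944 CPM, against 398 CPM in *Arg1*-negative cells, 377 CPM in microglia and 15 CPM in T cells, with its defining genes *Cd163* and *Folr2* at 0. *Ecm1*, a secreted matrix glycoprotein, stood at 185 CPM against 74.4 CPM but at 71.6 against 76.4 CPM without shared barcodes. The metalloproteinases were low and uneven. *Mmp19* and *Plau* (urokinase) stood at 35.1 and 23.9 CPM against 14.6 and 10.1 CPM. *Mmp8*, which is also a neutrophil marker, stood at 62.2 CPM in 7 cells, with 43.6% in 1 cell, and *Mmp13* at 52.6 CPM in 6 cells, with 84.8% in the cell of highest *Arg1*. *Adam8*, a membrane metalloproteinase of myeloid cells that was not on the list, stood at 159 CPM (130 to 194) in 23 cells against 37.2 CPM in *Arg1*-negative cells and passed 2-fold in all 18 alternatives. Of the 5 matrix genes with the highest levels, *Fn1* and *Spp1* passed 2-fold, whereas *Tgfbi*, *Thbs1* (thrombospondin 1, 657 CPM against 473) and *Sdc4* (syndecan 4, 524 CPM against 271) did not.

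Genes of glycolysis and of the response to hypoxia differed with less dependence on single cells. Of 21 compared with *Arg1*-negative cells, 9 were at least 2-fold higher and 0 lower, with a median log2 ratio of 0.96 that lay between 0.78 and 1.15 in all settings. Against microglia 19 of 21 were higher and 0 lower, with a median of 2.41. Hypoxia stabilizes the factor HIF-1α, which activates genes of glucose uptake, lactate production and angiogenesis. *Hif1a* mRNA itself stood at 735 CPM against 652 CPM in *Arg1*-negative cells, which is below 2-fold.

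*Vegfa*, the main angiogenic growth factor, was found in 40 of the 60 cells at 333 CPM (289 to 381) and in 33 of 128 *Arg1*-negative cells at 116 CPM (94.7 to 141). After thinning it was found in 44.2% of *Arg1*-positive macrophages, 13% of *Arg1*-negative cells and 1.30% of T cells. *Bnip3*, a mitochondrial protein of hypoxia-induced mitophagy, was found in 44 cells at 343 CPM (298 to 392) against 124 CPM, and after thinning in 46.2% against 16% of cells and 3.25% of T cells. *Egln3*, an oxygen-sensing prolyl hydroxylase that HIF itself induces, stood at 110 CPM (85.6 to 139) in 26 cells against 21.4 CPM, 5.14-fold higher. The highest single cell held 8.61% of the *Vegfa*, 11.6% of the *Bnip3* and 11.6% of the *Egln3* UMIs, and each of the 3 genes passed 2-fold in all 18 alternatives. Without shared barcodes the folds were 4.28 for *Vegfa*, 2.76 for *Bnip3* and 6.49 for *Egln3*.

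*Hilpda*, a lipid droplet protein induced by hypoxia that was not on the list, stood at 113 CPM (88.4 to 143) in 12 cells against 9.01 CPM in 6 *Arg1*-negative cells and 20.2 CPM in T cells, 12.6-fold higher than in the former, and 25.4% of its UMIs lay in 1 cell. *Ero1l*, an oxidase of the endoplasmic reticulum, stood at 296 against 114 CPM, and *Mif*, a cytokine, at 897 against 375 CPM. *Ndrg1*, another gene induced by hypoxia, stood at 110 against 37.2 CPM, with 24.6% of its UMIs in 1 cell. Among the glycolytic enzymes, *Pgk1* (phosphoglycerate kinase) was 2.17-fold and *Ldha* (lactate dehydrogenase A) 2.01-fold higher. Without the cell with most of each gene they were 2.08-fold and 1.94-fold higher. *Pdk1*, a kinase that holds pyruvate back from the mitochondria, stood at 105 against 50.7 CPM, and at 105 against 63.7 CPM without shared barcodes. Others stayed just below 2-fold, with *Tpi1* at 985 against 506 CPM, *Pfkl* at 215 against 110 CPM and *Gapdh* at 1756 against 986 CPM. *Slc2a1*, the glucose transporter GLUT1, stood at 242 against 175 CPM, and *Pfkp* at 308 against 361 CPM. *Aldoa*, with 2 entries of the same symbol in the files, was left out.

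**Figure D3:**
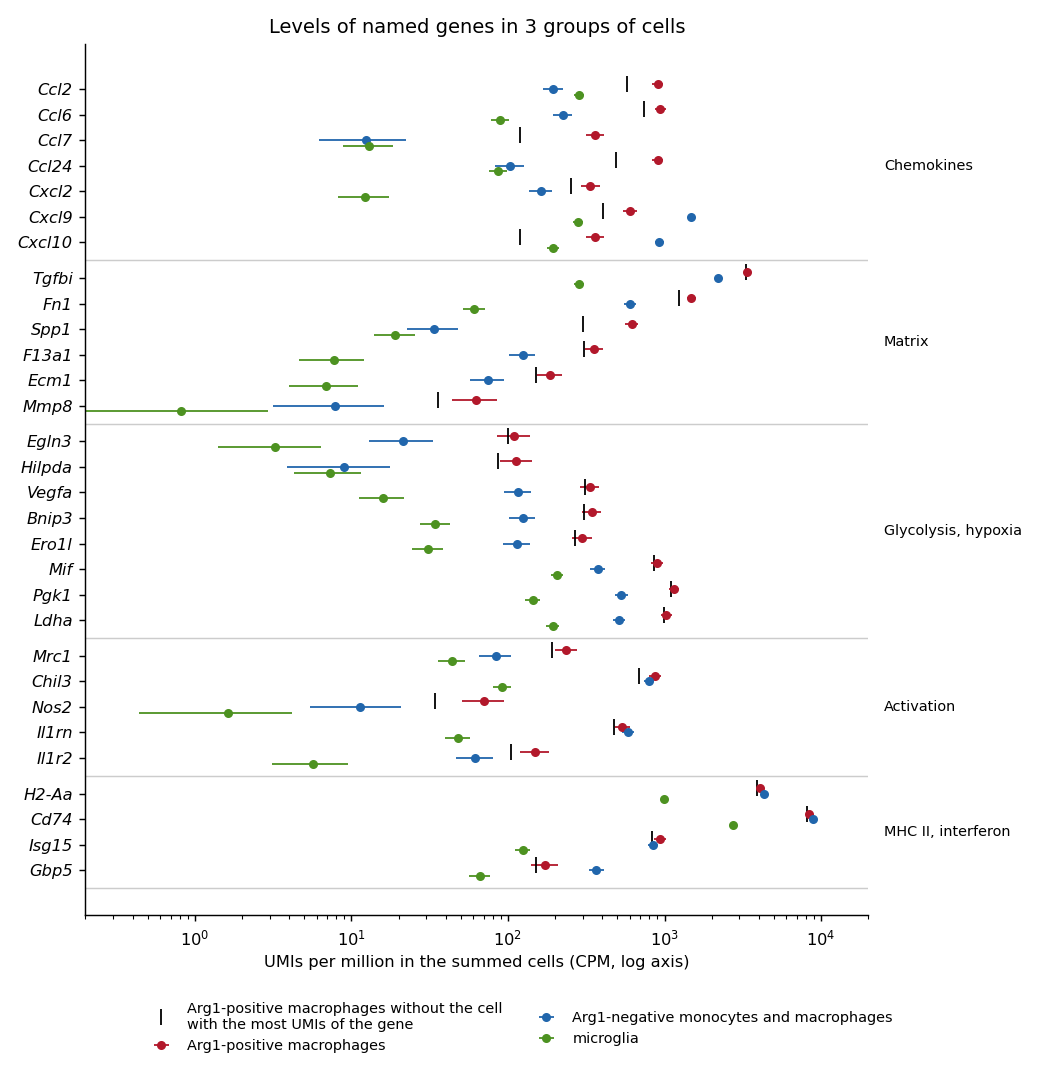
Levels of 30 named genes in *Arg1*-positive macrophages, *Arg1*-negative monocytes and macrophages, and microglia of the vehicle control library, in CPM (log axis). Points are summed cells, bars are exact Poisson 95% intervals, and black ticks give the *Arg1*-positive level without the cell that held most of the gene. Removing that cell moved *Ccl7* from 362 to 119 CPM but *Vegfa* only from 333 to 310 CPM.

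Since 9 genes of this list were higher together, the promoters of the list were read from RefSeq for GRCm38.p6, over the 250 bases before each listed start site. Of the 9 genes called higher, 7 had an entry and 5 of these held the letters ACGTG on either strand, the core that HIF recognizes. Of the 12 list genes not called, all 12 had an entry and 6 held it. Over all 27025 genes with a promoter entry, 18.5% held it in at least 1 promoter. The 5 called genes are shown as 65 bases around their first match, with matches in capitals, 5′ to 3′ on the strand of the gene. A match is a sequence description and no evidence of binding.

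*Bnip3*, chr7:138909580-138909644, minus strand: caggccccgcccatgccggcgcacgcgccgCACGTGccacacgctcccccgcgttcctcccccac
*Egln3*, chr12:54204060-54204124, minus strand: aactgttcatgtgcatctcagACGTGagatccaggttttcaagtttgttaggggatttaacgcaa
*Ldha*, chr7:46845629-46845693, plus strand: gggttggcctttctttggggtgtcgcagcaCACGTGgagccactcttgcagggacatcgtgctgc
*Pgk1*, chrX:106186920-106186984, plus strand: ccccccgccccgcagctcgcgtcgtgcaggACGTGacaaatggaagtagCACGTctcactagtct
*Vegfa*, chr17:46025340-46025404, minus strand: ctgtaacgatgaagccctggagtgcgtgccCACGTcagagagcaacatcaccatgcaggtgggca

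The first match lay 150 bases before the start site in *Pgk1*, 145 in *Ldha*, 108 in *Bnip3*, 211 in *Vegfa* and 229 in *Egln3*. In *Bnip3* and *Ldha* the 2 strands overlap in the palindrome CACGTG. *Vegfa* and *Ldha* have more than 1 listed start site, and the windows shown for them lie before a start site inside the annotated gene (46016993 to 46032369 for *Vegfa* and 46841475 to 46855627 for *Ldha*). These windows can therefore hold transcribed sequence of a longer transcript, coding sequence included, and are not upstream of the whole gene. Both genes are counted among the 5 with a match.

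The same window was searched for 4 further motifs in the 5 markers and the genes of highest ratio over *Arg1*-negative cells, of which 13 of 19 had an entry. The core of STAT sites was found in 1 gene (6.76% of all genes), TGANTCA, that of AP-1, in 3 genes (7.82%), that of interferon-stimulated response elements in 3 (3.46%), TTGCNNCAA, that of C/EBP sites, in 0 (1.98%), and ACGTG in 4 (18.5%). Of the markers, *Tgfbi* and *Il1rn* had entries. *Arg1*, *Fn1*, *Ccl24*, *Ccl7*, *Nos2* and *Ccl2* had none. The *Tgfbi* promoter and 1 of the 3 *Il1rn* promoters are shown with the matches of all 5 motifs in capitals, the interferon-stimulated response element core in the first and TGANTCA in the second.

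*Tgfbi*, chr13:56609336-56609585, plus strand: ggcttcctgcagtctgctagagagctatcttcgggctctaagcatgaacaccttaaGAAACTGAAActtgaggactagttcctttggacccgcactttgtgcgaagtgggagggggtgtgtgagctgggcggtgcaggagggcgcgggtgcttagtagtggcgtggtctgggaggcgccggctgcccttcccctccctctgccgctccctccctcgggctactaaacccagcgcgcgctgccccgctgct
*Il1rn*, chr2:24336610-24336859, plus strand: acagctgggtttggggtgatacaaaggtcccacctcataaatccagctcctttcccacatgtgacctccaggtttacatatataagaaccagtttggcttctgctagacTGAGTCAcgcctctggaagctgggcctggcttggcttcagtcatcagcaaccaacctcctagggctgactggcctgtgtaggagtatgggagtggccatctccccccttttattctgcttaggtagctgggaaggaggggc

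Genes of alternative activation did not all follow *Arg1*. Of 8 compared with *Arg1*-negative cells, 4 were at least 2-fold higher (*Ccl24*, *Mrc1*, *Mgl2* and *Pdcd1lg2*) and 0 lower, and against microglia 7 of 8 were higher. *Mrc1*, the mannose receptor CD206, stood at 236 CPM (199 to 277) in 22 cells, against 83.4 CPM in *Arg1*-negative cells, 43.8 CPM in microglia and 0 in T cells. After thinning it was found in 28.8% of *Arg1*-positive macrophages and 12% of *Arg1*-negative cells. *Mgl2*, a lectin of alternatively activated macrophages, rested on 5 cells at 51.0 CPM. It was 1.80-fold higher without its highest cell and 1.73-fold higher without shared barcodes, where all its 12 UMIs lay in 1 cell. *Chil3*, a chitinase-like lectin often paired with *Arg1* in this role, stood at 869 CPM (797 to 945) in 26 cells, and at 798 CPM (740 to 859) in *Arg1*-negative cells. *Retnla* and *Cd163* were at 0 UMIs, which does not exclude a level below the floor of 3 UMIs used for ratios.

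*Nos2* was detected in the same group of cells. It stood at 70.1 CPM (51.0 to 94.1) in 10 cells, against 11.3 CPM in 3 *Arg1*-negative cells and 1.62 CPM in microglia. The cell with most of it, with 66 *Arg1* UMIs, held 52.3% of its 44 UMIs, and without it *Nos2* stood at 34.0 CPM, 3.02-fold higher than in *Arg1*-negative cells. Cells with *Nos2* had a median of 21.5 *Arg1* UMIs, against 4.5 in cells without it, at a median depth of 9181.5 against 12018 UMIs. Of the 10 cells 4 also held *Mrc1*, and 4 held *Spp1*.

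Other genes of arginine and polyamine metabolism differed little, with 2 of 12 compared higher than in *Arg1*-negative cells and 0 lower. The second of them, *Srm* (spermidine synthase), stood at 25.5 CPM in 8 cells against 4.51 CPM, and held 1 UMI without shared barcodes. *Slc7a2*, a cationic amino acid transporter that imports arginine, stood at 155 against 95.8 CPM and *Ass1* (argininosuccinate synthase) at 206 against 199 CPM. *Arg2*, the mitochondrial arginase, stood at 27.1 CPM in 9 cells against 21.4 CPM. Against microglia *Slc7a2* was 18.2-fold and *Ass1* 9.06-fold higher.

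Iron and heme genes included 3 of 9 at least 2-fold higher than in *Arg1*-negative cells and 0 lower. *Hmox1*, the heme-degrading heme oxygenase 1, stood at 292 CPM (251 to 337) in 41 cells against 133 CPM, and at 628 against 178 CPM without shared barcodes. It passed 2-fold in all 18 alternatives, though it stood 1.78-fold higher without the cell with most of it. The others were *Trf* (transferrin), at 260 against 123 CPM, and *Tfrc* (transferrin receptor), at 20.7 CPM in 10 cells against 10.1 CPM. Neither passed 2-fold without shared barcodes, with *Trf* at 325 against 163 CPM and *Tfrc* at 2 UMIs. The ferritin chains *Fth1* and *Ftl1* were the most abundant of the list, at 9195 and 3645 CPM against 8279 and 2902 CPM. *Slc40a1*, the iron exporter ferroportin, was at 0 in both infiltrating groups and at 104 CPM in microglia.

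Scavenging and complement receptors were partly higher. *Msr1*, a scavenger receptor, stood at 580 CPM (522 to 643) in 46 cells against 240 CPM in *Arg1*-negative cells and was 2.18-fold higher without shared barcodes. *C3ar1* and *C5ar1*, the receptors of the complement fragments C3a and C5a, stood at 381 against 153 CPM and at 123 against 45.1 CPM, and were 1.72-fold and 1.13-fold higher without shared barcodes. The complement gene *C1qa* stood at 693 against 563 CPM, and at 5524 CPM in microglia. In all, 3 of 18 complement and phagocytosis genes were higher and 0 lower.

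In the lysosome list 1 of 16 was higher and 1 lower than in *Arg1*-negative cells. The former was *Ctsl* (cathepsin L), at 411 CPM (363 to 465) in 43 cells against 113 CPM, and at least 2-fold higher in all 18 alternatives. The latter was *Cst3* (cystatin C, an inhibitor of cathepsins), at 963 against 1964 CPM and at 19381 CPM in microglia. Without shared barcodes *Cst3* was below 2-fold, at 925 against 1582 CPM. Among lipid genes, *Msr1* was higher and 3 of 17 were lower. These were *Cd36* (a fatty acid and lipoprotein receptor), at 17.5 against 92.4 CPM, *Nr1h3* (the liver X receptor α), at 38.3 against 137 CPM, and *Fabp4*, at 0 UMIs against 28.2 CPM. The *Arg1*-positive cell with most *Cd36* was also that with most *Ace* and *Ear2*, genes of nonclassical monocytes given below. The part of nonclassical monocytes in the *Cd36* difference was not tested.

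Antigen presentation and interferon genes were at similar levels in the 2 infiltrating groups. Of 9 MHC class II genes compared, 0 were higher and 1 lower than in *Arg1*-negative cells, with a median log2 ratio of -0.11. *H2-Aa* stood at 4096 CPM (3940 to 4258) against 4349 CPM (4213 to 4489), and *Cd74*, the invariant chain, at 8373 against 8903 CPM. Of 23 interferon response genes 0 were higher and 1 was lower, *Gbp5* (a guanylate-binding protein) at 172 against 366 CPM (248 against 390 CPM without shared barcodes), with a median of -0.11. *Isg15* stood at 936 against 842 CPM. Against microglia all 23 interferon genes were at least 2-fold higher, with a median of 2.08, and 6 of 8 MHC class II genes.

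Interleukin-1 and checkpoint genes likewise showed few differences. *Il1r2*, the decoy receptor of interleukin-1, was the 1 of 11 interleukin-1 list genes called higher than in *Arg1*-negative cells, at 148 against 62.0 CPM. Without its highest cell *Il1r2* was 1.68-fold higher. *Il1b* stood at 671 against 438 CPM. Of 9 suppression and checkpoint genes 1 was higher, *Pdcd1lg2* (PD-L2), at 59.0 CPM in 13 cells against 29.3 CPM. *Cd274* (PD-L1) stood at 287 against 308 CPM, and *Il10* and *Ido1* were at 0 UMIs. None of the 7 NADPH oxidase and PKCδ genes passed 2-fold against *Arg1*-negative cells, whereas 2 of 7 were higher than in microglia. *Prkcd*, the PKCδ gene central to the study, stood at 602 CPM (543 to 666) in 53 cells, against 966 CPM (902 to 1032) in *Arg1*-negative cells and 416 CPM (391 to 442) in microglia. Without shared barcodes *Prkcd* stood at 881 CPM, nearer to the 1057 CPM of *Arg1*-negative cells and 2.03-fold above the 434 CPM of microglia. *Cybb*, the catalytic oxidase subunit, stood at 1243 against 1633 CPM.

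**Figure D4:**
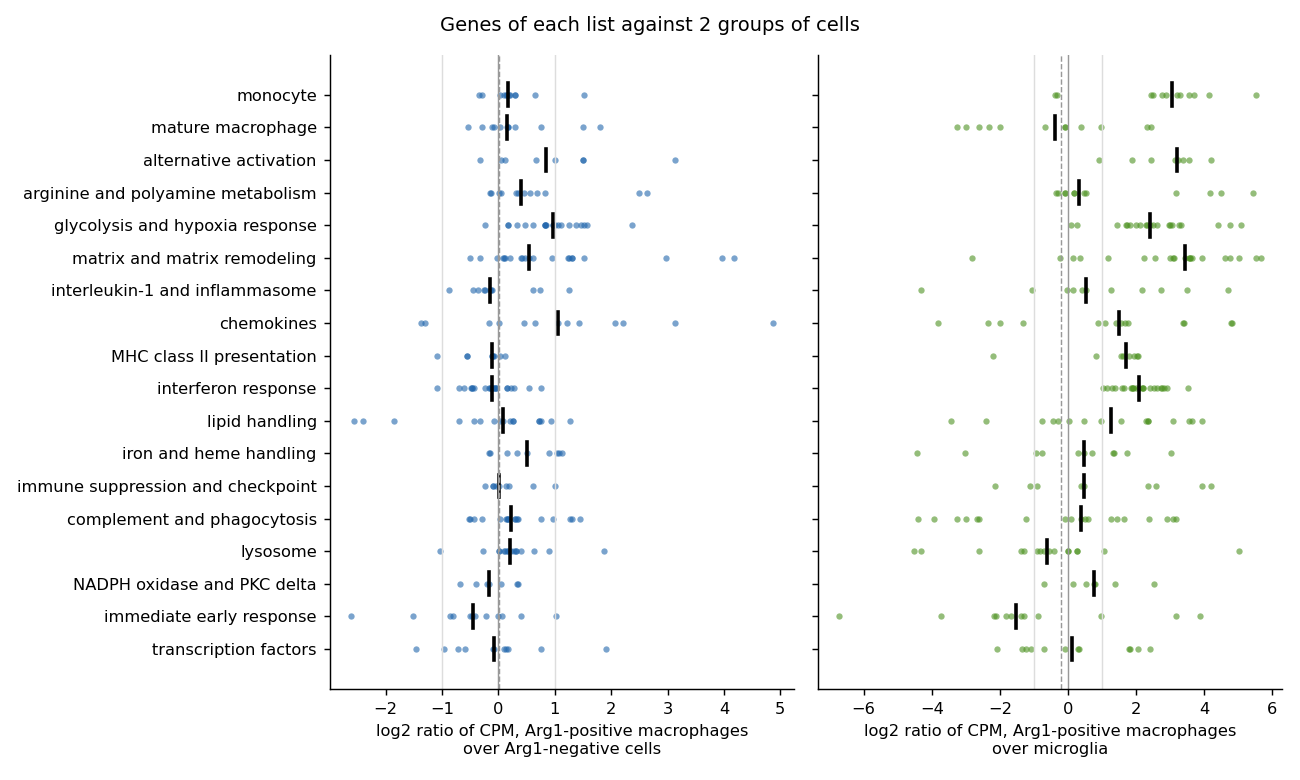
Log2 ratios of CPM of *Arg1*-positive macrophages over *Arg1*-negative cells (left) and over microglia (right) for the compared genes of 18 lists. Points are genes, black bars the list medians, and the dashed line the median over all compared genes. The glycolysis and hypoxia list had medians of 0.96 and 2.41, the interferon list of -0.11 and 2.08.

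The genes that were lowest against *Arg1*-negative cells included genes of subsets within that mixed group. *Cd209a*, a lectin of monocyte-derived dendritic cells, stood at 1.59 CPM (0.0404 to 8.88, 1 UMI) against 82.3 CPM in 9 *Arg1*-negative cells. Genes of nonclassical monocytes followed. *Spn* (CD43) stood at 9.56 against 108 CPM, *Adgre4* at 11.2 against 85.6 CPM, *Ear2* at 14.3 against 78.9 CPM, *Ace* at 9.56 against 69.9 CPM and *Treml4* at 6.38 against 50.7 CPM. *Cd300e* was at 0 UMIs against 55.2 CPM, 11.5-fold lower when set to the floor of 3 UMIs. When *Arg1*-negative cells with at least 2 of these 6 nonclassical genes or with *Cd209a* were left out, 103 remained and 277 rather than 336 genes were lower. *Stap1*, a signaling adaptor, stood at 6.38 against 112 CPM and was at least 2-fold lower in all 18 alternatives, as was the activation marker *Cd69*, at 15.9 against 98.0 CPM. Both genes were well expressed in T cells, at 103 and 278 CPM, as was *Spn* at 260 CPM. *Arg1*-negative cells were selected to lack T cell marker sets, and the part of T cell RNA in these 3 genes was not tested. The immediate early gene *Egr1*, at 33.5 against 95.8 CPM, was also at least 2-fold lower in all 18, whereas *Nr4a1*, at 20.7 against 127 CPM, was in 16. The *Arg1*-positive cell with most *Nr4a1* was also that with most *Ace* and *Ear2*. The part of nonclassical monocytes in the *Nr4a1* difference was not tested. Over the 12 genes of the immediate early list 1 was higher and 2 were lower, with a median log2 ratio of -0.45. The gene called higher was the heat shock gene *Hspa1b*, at 95.6 against 47.3 CPM. It was 1.32-fold higher without its highest cell and 3.24-fold higher without shared barcodes. Of 11 transcription factors compared, *Myc* was higher, at 25.5 against 6.76 CPM (without shared barcodes 16.5 against 10.2 CPM, on 3 UMIs), and *Klf4* lower, at 57.4 against 158 CPM.

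Several genes of high ratio over *Arg1*-negative cells belong to none of these lists. *Etv5*, an ETS transcription factor, was found in 18 of the 60 cells at 51.0 CPM (34.9 to 72.0) against 5.63 CPM in 5 *Arg1*-negative cells, 9.05-fold higher, and at 63.6 CPM in microglia. Without shared barcodes it stood 2.59-fold higher, on 6 UMIs in 5 cells. Its highest cell held 12.5% of its UMIs. *Gclm*, a subunit of the enzyme that limits glutathione synthesis, stood at 51.0 against 9.01 CPM in 10 cells, with 43.8% in 1 cell. *Il7r* stood at 97.2 against 15.8 CPM in 9 cells but at 538 CPM in T cells, and the part of free T cell RNA in this value was not tested. *Emp1*, a membrane protein, stood at 79.7 CPM in 9 cells against 25.9 CPM in *Arg1*-negative cells and 0.810 CPM in microglia, but at 0 UMIs in the 31 cells without shared barcodes, against 17.8 CPM in *Arg1*-negative cells.

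Against microglia, the highest ratios again included genes of monocytes. *Emp1*, *Clec4e* and *Clec4d* (C-type lectin receptors of myeloid cells), *F10* (coagulation factor X) and *Upp1* (uridine phosphorylase) stood at 79.7, 76.5, 55.8, 700 and 82.9 CPM in *Arg1*-positive macrophages and at 0.810, 1.22, 1.22, 18.6 and 2.03 CPM in microglia. Of these *F10* was found in 50 of the 60 cells, and *Emp1*, as given above, had no UMI without shared barcodes. The lowest were genes of microglial identity that took no part in the selection. *Sparc*, a secreted matrix protein, stood at 3.19 CPM (0.386 to 11.5) against 2005 CPM, *Cd81* at 14.3 against 1502 CPM, *Fcrls* at 12.8 against 790 CPM, *Serpine2* at 3.19 against 354 CPM and *Slc2a5* at 1.59 against 303 CPM. *Plxdc2* was at 0 UMIs against 744 CPM, 156-fold lower when set to the floor of 3 UMIs. Since microglia were selected on identity genes, the size of these differences is a description.

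The cells were then ordered by their *Arg1* after thinning to 2000 UMIs, which left 17 cells with 0, 9 with 1, 11 with 2 to 4 and 15 with 5 or more *Arg1* UMIs. Every bin held fewer than 20 cells, so no trend is drawn from them. *Ccl24* stood at 206, 0, 182 and 2300 CPM in the 4 bins, *Spp1* at 0, 0, 227 and 1700 CPM, and *Ccl2* at 412, 333, 682 and 2200 CPM. Each of these genes was highest in the bin of most *Arg1*, and each rests on few cells, as given above. The summed chemokine list stood at 2206, 2944, 4364 and 11267 CPM, and the glycolysis and hypoxia list at 9941, 12611, 13091 and 14967 CPM. The iron and heme list stood at 9941, 11278, 14591 and 18333 CPM. *Tgfbi* was similar in all bins, between 2727 and 4500 CPM. *Chil3* was lowest where *Arg1* was highest, at 1559, 833, 1045 and 367 CPM, and the summed monocyte list stood at 13912, 10056, 6182 and 8933 CPM.

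The 3 cells of highest *Arg1* differed from each other in the rest of their RNA. The first, with 211 *Arg1* UMIs among 21491, held 32 UMIs of *Mrc1*, 28 of *Mmp13* and 48 of *Ccl24*. The second, with 144 among 13470, held 154 UMIs of *Ccl7*, 153 of *Cxcl10*, 109 of *Ccl2* and 78 of *Spp1*. The third, with 130 among 20515, held 267 UMIs of *Ccl24* but 1 of *Spp1* and 0 of *Ccl2*. The fifth, with 82 among 24900, held 187 UMIs of *Fn1* and 144 of *Ccl6* but 1 of *Ccl24*. High *Arg1* thus occurred with different chemokine and matrix genes in different cells.

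The *Arg1*-negative cells of the niacin libraries show how far these genes were found outside the *Arg1*-positive group, at 48 cells in niacin replicate 1 and 55 in niacin replicate 2. *Ccl24* stood at 13.7 and 560 CPM there, against 103 CPM in the vehicle control, so the vehicle value lay between those of the niacin libraries. *Mrc1* stood at 48.0 and 190 CPM, *Fn1* at 182 and 104 CPM, and *Tgfbi* at 250 and 185 CPM against 2205 CPM in the vehicle control. *Vegfa* stood at 6.86 and 0 CPM against 116 CPM, and *Egln3* at 0 and 0 against 21.4 CPM. *Ear2* stood at 720 and 848 CPM against 78.9 CPM, and *Ace* at 851 and 609 CPM against 69.9 CPM, so the make-up of the *Arg1*-negative group differed between libraries. Treatment, library and this make-up cannot be told apart.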

How the data were processed

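Droplet libraries were aligned with STAR through Cell Ranger (version 3.1) to mm10 by the authors, per the submitters' processing notes, and the deposited values are raw UMI counts per gene and barcode. From these counts, UMIs were summed over the cells of each group and divided by the group's total (CPM), so that deep cells weigh more. Genes with at least 20 CPM in either group were compared, and a gene was called at a 2-fold difference. For ratios, a group with fewer than 3 UMIs of a gene was set to a floor of 3 counts over the group. Intervals were exact Poisson (levels) or exact binomial (shares). Named genes were the 5 markers, up to 15 of highest and lowest ratio per comparison with at least 50 CPM, and in each list up to 4 of highest CPM plus those called. S100a8, S100a9 and the genes given at 0 were named after their values were seen. Members and lists were chosen with earlier results of these data known, and no test was run. The software was Python 3.11.15 with numpy 2.4.6, scipy 1.17.1, pandas 2.3.3 and matplotlib 3.10.9, and R 4.3.3 with edgeR 4.0.16 for TMM factors only. Summing and calling were tested on simulated data. Alternatives varied the barcode rule, thresholds, depth, cell weights, scaling and the comparison group. Values of a few genes are not reported here.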

Additional observations from a re-analysis of the deposited data

How the results depend on the processing

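The settings were changed one at a time, and those without the cells highest in Arg1, in depth or in a given gene, and without nonclassical monocyte genes, were chosen after seeing the data. The number of cells (60) was 31 without every shared barcode and 34 at a minimum of 5 Arg1 UMIs, and the share (4.75%) was 2.84% without shared barcodes, 3.64% and 2.69% at 2 and 5 Arg1 UMIs and 6.70% without cells with markers of other classes. The 290 genes higher than in Arg1-negative cells became 797 without shared barcodes, 500 at 5 Arg1 UMIs, 911, 676 and 635 after thinning to 1000, 2000 and 4000 UMIs, 637 as a mean over cells, and 462 and 116 at minimums of 10 and 50 CPM. The 336 lower became 546 without shared barcodes, 546 at 5 Arg1 UMIs, 793 as a mean over cells, 629 and 112 at 10 and 50 CPM and 524 against all Lyz2-positive cells without Arg1. The 1745 lower than in microglia became 666 and 1069 after thinning to 1000 and 2000 UMIs and 962 at 50 CPM. Fn1 over Arg1-negative cells turned from a log2 ratio of 1.31 to -0.022 without shared barcodes. The cause was not tested. Of 78 gene counts in all alternatives 61 stayed within 1.5 times, and of 624 list medians 49 changed sign.

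No paired analysis was possible because the vehicle group is a single library. Leaving out a library was not run for the same reason. Depth limits genes under 20 CPM in 60 cells, and the shared barcodes limit, among others, Fn1, Ccl2, Ccl3, Ccl7, Ccl12, Ecm1, Emp1, C3ar1, C5ar1, Mgl2, Myc, Pdk1, Tfrc, Trf, Cst3, Gbp5 and Prkcd.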
